A study of Mus musculus with 143 samples.

Results

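The genes described here were 7 mouse genes of the zona pellucida and of fertilization, chosen by name: Zp1, Zp2, Zp3, Izumo1r, Cd9, Astl and Itpr1. They were 7 of 55573 gene IDs in the poly(A) tables and 7 of 55487 in the RiboMinus tables, and all 7 passed the filter on low counts in every fit. Single oocytes were sequenced from control mice and from conditional mutants (cKO) that lacked Dis3, Exosc10 or both genes together (dcKO), the mutants having been made with CRISPR/Cas9. The DIS3 and EXOSC10 proteins are ribonucleases of the nuclear RNA exosome, which degrades and trims RNA. Poly(A) libraries came from oocytes with an intact germinal vesicle (GV, 8 control and 15 Dis3 cKO), from oocytes named GV3h for 3 h (8 and 16) and from eggs arrested in metaphase II (MII, 8 and 16). GV and GV3h oocytes were taken from ovaries and kept in M2 medium, and MII eggs came from oviducts after superovulation, so the stages also differed in how they were collected. RiboMinus libraries, which do not select poly(A) tails, came from adult GV oocytes (8 control and 8 Dis3 cKO) and from oocytes labelled p20 (8 each of control, Dis3 cKO, Exosc10 cKO and dcKO), a label usually read as postnatal day 20. The labels do not name the Cre driver, the strain, or the female each oocyte came from. Replicates were single oocytes, so the p-values below measure the spread between these oocytes.

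The zona pellucida is the glycoprotein coat of the egg, and Zp1, Zp2 and Zp3 encode the proteins that mouse oocytes secrete to build it. The ZP2 protein carries the region that sperm bind, and after fertilization it is cleaved by ovastacin, the cortical granule protease encoded by Astl. On the egg membrane, JUNO, encoded by Izumo1r, is the receptor for the sperm protein IZUMO1, and the tetraspanin CD9 is needed for gamete fusion. Itpr1 encodes the inositol trisphosphate receptor through which calcium leaves the endoplasmic reticulum at egg activation.

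The RefSeq promoter table (GRCm38.p6, 250 bases before to 50 after a start) held entries for Zp3, Izumo1r, Cd9 and Astl. They are shown because FIGLA, an oocyte transcription factor known to drive zona genes, binds the E-box CANNTG. Among the zona genes only Zp3 had an entry, and binding was not tested. Capitals mark every CANNTG, a motif that reads the same on both strands. Zp3 lies at chr5:135979855-135980154 (+), Izumo1r at chr9:14903718-14904017 (-), Cd9 at chr6:125494711-125495010 (-) and the second Astl start at chr2:127341386-127341685 (+).
Zp3: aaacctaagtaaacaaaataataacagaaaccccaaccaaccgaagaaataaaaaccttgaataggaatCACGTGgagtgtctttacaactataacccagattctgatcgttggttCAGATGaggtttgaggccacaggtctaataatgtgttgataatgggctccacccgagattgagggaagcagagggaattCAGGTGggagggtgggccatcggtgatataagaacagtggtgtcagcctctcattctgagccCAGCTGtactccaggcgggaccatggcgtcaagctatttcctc
Izumo1r: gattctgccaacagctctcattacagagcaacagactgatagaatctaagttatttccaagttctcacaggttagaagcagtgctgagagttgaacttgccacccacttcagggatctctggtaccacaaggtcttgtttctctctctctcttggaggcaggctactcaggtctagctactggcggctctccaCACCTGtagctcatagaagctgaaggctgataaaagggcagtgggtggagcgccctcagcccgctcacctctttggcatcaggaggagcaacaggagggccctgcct
Cd9: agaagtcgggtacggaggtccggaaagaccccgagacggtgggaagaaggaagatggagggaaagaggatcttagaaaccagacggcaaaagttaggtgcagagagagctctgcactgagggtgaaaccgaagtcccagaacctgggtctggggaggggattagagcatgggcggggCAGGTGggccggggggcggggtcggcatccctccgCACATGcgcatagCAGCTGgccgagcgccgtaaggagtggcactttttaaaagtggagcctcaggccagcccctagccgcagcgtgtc
Astl: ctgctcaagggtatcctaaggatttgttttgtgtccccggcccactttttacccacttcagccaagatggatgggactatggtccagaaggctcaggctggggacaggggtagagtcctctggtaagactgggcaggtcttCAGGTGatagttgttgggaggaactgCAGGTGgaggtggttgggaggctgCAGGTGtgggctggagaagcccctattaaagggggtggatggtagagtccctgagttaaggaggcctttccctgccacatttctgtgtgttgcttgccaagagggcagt

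The Zp3 window held 4 E-boxes at positions -181, -134, -55 and 8 from the start. At least 4 were present in 6.49% of the 32851 promoter windows of this length. Cd9 held 3, at -73, -38 and -25, and Izumo1r held 1, at -57. Astl had a pair of listed starts, and the first (chr2:127338389-127338688) held none. The second Astl start held 3, at -109, -83 and -59, and all 3 were CAGGTG. At least 1 E-box stood in 72.3% of all windows and at least 3 in 17.6%. The letters TATAAA (13.6% of windows) and TAATTG (8.00%) were searched on both strands and were in none of the member windows. These matches describe letters only.

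Total gene counts were 4843964 to 15412200 in the 71 poly(A) libraries and 8492102 to 35429028 in the 48 RiboMinus libraries, with ERCC spike-in RNA counted beside them. Levels are given as counts per 1000000 gene counts after TMM scaling (CPM). The knockouts matched their labels: Dis3 was at 0 to 5.85 CPM in every library of the Dis3 cKO and dcKO groups, and in no comparison did it reach the lowest control. Exosc10 was at 0.347 to 14.4 CPM in the Exosc10 cKO and dcKO libraries, against 102 to 138 CPM in p20 controls. All 8 oocyte markers averaged over 1 CPM in every group, and the 5 blood markers together stayed at or under 1.17 CPM in every library. The 16 granulosa and cumulus markers summed to 100 to 441 CPM over all libraries. They stood at 267 to 423 CPM (median 308) in GV controls against 179 to 438 CPM (median 248) in GV Dis3 cKO, at 231 to 316 CPM in GV3h controls against 128 to 241 CPM in GV3h Dis3 cKO, and at 215 to 265 CPM in p20 controls against 133 to 228 CPM in dcKO. In adult RiboMinus libraries they stood at 178 to 238 CPM in controls and 152 to 264 CPM in Dis3 cKO. Only part of this list carried the sum. In GV controls 12 of the 16 averaged over 1 CPM. In MII Dis3 cKO 6 did (Cyp19a1, Star, Ptgs2, Kitl, Nr5a2 and Esr2), and Amhr2, Foxl2, Inha and Ptx3 were at 0 in every egg. Whether the sum measures granulosa or cumulus cells was not tested.

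In control oocytes the zona and membrane transcripts were lower in the poly(A) libraries at MII than at GV. Relative to the other genes of the same library, Zp1, Zp2, Zp3, Izumo1r and Cd9 fell in MII eggs and Itpr1 rose, though Itpr1 fell when libraries were scaled to the spike-in. Of all genes tested, 35.8% were called lower and 22.7% higher in the same comparison. The granulosa and cumulus sum had a median of 308 CPM in GV controls and 239 CPM in MII controls, with overlapping ranges. The 8 oocyte markers summed to 10068 to 13506 CPM in GV controls and 15717 to 19575 CPM in MII controls, with no overlap. The part of either sum in these changes was not tested. A gene was called at an adjusted p under 0.05 in the quasi-likelihood test of edgeR, adjusted over all genes by the Benjamini-Hochberg method, and the same test gives every adjusted p below. Where a gene is said below not to overlap between groups, the share of all genes that did likewise is not given.

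Zp3, a structural zona protein, had 955 to 1599 CPM in GV controls (median 1280) and 70.3 to 149 CPM in MII controls (median 98.1). It was 12.2-fold lower in MII (log2 fold change -3.61 ± 0.31 SE, adjusted p = 8.3e-17). Zp2 stood at 1862 to 4119 CPM in GV (median 2585) and at 465 to 699 CPM in MII (median 540), 5.27-fold lower (-2.40 ± 0.29, adjusted p = 3.5e-11). No MII control library reached the lowest GV control library for either gene. Zp1, which cross-links the zona filaments, went from 493 to 741 CPM in GV (median 590) to 73.9 to 161 CPM in MII (median 118), 5.18-fold lower (-2.37 ± 0.25, adjusted p = 2.2e-13). The ZP genes did not keep their proportions: Zp3 gave 27.6% ± 4.4 (SD, n = 8) of the counts of the 3 ZP genes in GV controls and 13.6% ± 4.0 (SD, n = 8) in MII controls, and Zp2 gave 59.4% ± 5.5 and 71.1% ± 3.5 (SD, n = 8 each).

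For the membrane genes, Cd9 ran from 157 to 415 CPM in GV controls (median 184) and from 25.7 to 56.7 CPM in MII controls (median 29.0), 6.46-fold lower (-2.69 ± 0.34, adjusted p = 1.6e-10). Izumo1r, the sperm receptor gene, ran from 84.4 to 138 CPM in GV (median 131) and from 22.9 to 36.7 CPM in MII (median 31.1), 3.99-fold lower (-1.996 ± 0.15, adjusted p = 7.6e-20). Every MII egg was again below every GV oocyte for both genes.

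Astl and Itpr1 behaved otherwise. Astl stood at 332 to 693 CPM in GV controls (median 445) and at 181 to 740 CPM in MII controls (median 298), and the difference did not pass the test (-0.28 ± 0.29, adjusted p = 0.414). MII control eggs 6 and 8, at 704 and 740 CPM, were above every GV control, while the other 6 were at 181 to 446 CPM. Itpr1 stood at 97.0 to 164 CPM in GV controls (median 141) and at 164 to 287 CPM in MII controls (median 217), 1.63-fold higher (0.71 ± 0.14, adjusted p = 1.6e-05). In 7 of 8 MII eggs it was above the highest GV control.

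Controls were also compared between GV and the 3 h time point. None of the 7 genes was called (1.14% of all genes were called higher and 1.56% lower). Zp1 (0.56 ± 0.23, adjusted p = 0.216) and Izumo1r (0.40 ± 0.14, adjusted p = 0.106) were the 2 with an unadjusted p under 0.05. Izumo1r was at 144 to 173 CPM in GV3h, above all 8 GV controls. DESeq2 also called none. With only these groups fitted, Zp1 (0.56, adjusted p = 0.0012), Zp3 (0.44, 0.0035) and Izumo1r (0.41, 0.0084) were called higher. That fit called 1056 of all 13785 genes higher and 1027 lower.

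**Figure D1:**
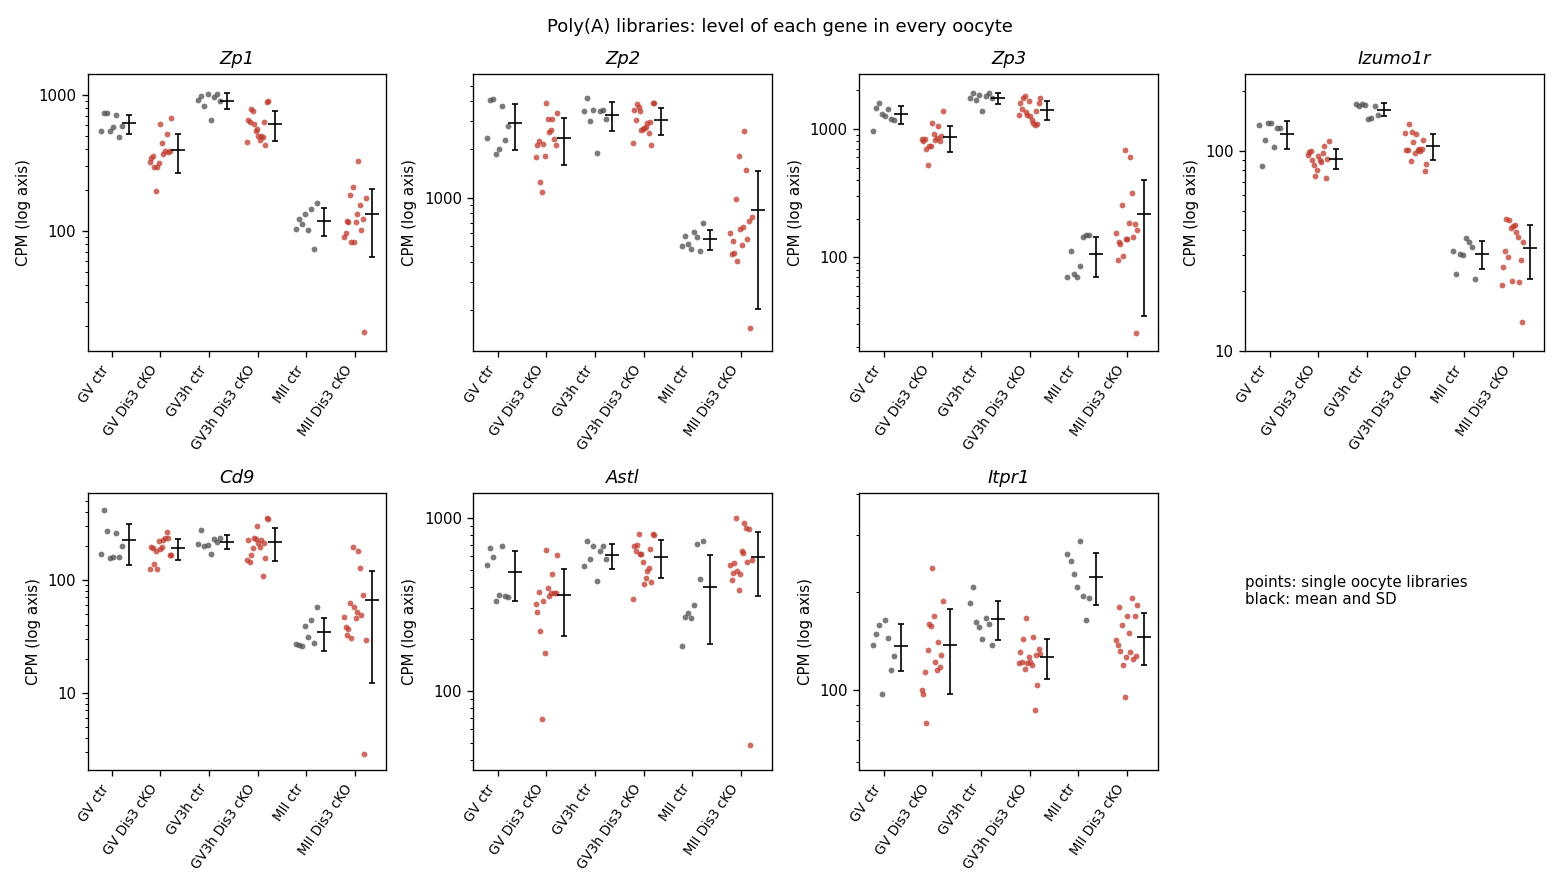
Level of each of the 7 genes in every poly(A) library, in CPM on a log axis, by stage and genotype (grey: control, red: Dis3 cKO); black marks give the mean and SD. Zp1, Zp2, Zp3, Izumo1r and Cd9 were lower at MII than at GV in both genotypes on this TMM scale, and MII Dis3 cKO egg 15 lay lowest for every gene but Itpr1.

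The labels' protocol adds the same diluted ERCC mix to each poly(A) lysate, so levels can also be read against a fixed amount of added RNA. Control oocytes had 137 ± 16 gene counts per ERCC count at GV and 46.0 ± 3.4 at MII (SD, n = 8 each). With libraries scaled to ERCC, the median log2 fold change of all genes from GV to MII moved from -0.27 to -2.12, and 58 genes were called higher and 15217 lower of 17389. On that scale the log2 fold changes of Zp3, Cd9, Zp2, Zp1 and Izumo1r were -5.49, -4.60, -4.29, -4.25 and -3.85. Their differences from the median gene were -3.37, -2.48, -2.17, -2.13 and -1.73. Itpr1 turned direction: it was lower per spike-in (-1.16, adjusted p = 1.4e-05), yet 0.96 above the median gene. Astl fell by 2.20 per spike-in (adjusted p = 1.4e-06), a difference of -0.08 from the median gene. Poly(A) capture reads the tail as well as the amount of an RNA, and these cannot be told apart here.

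**Figure D2:**
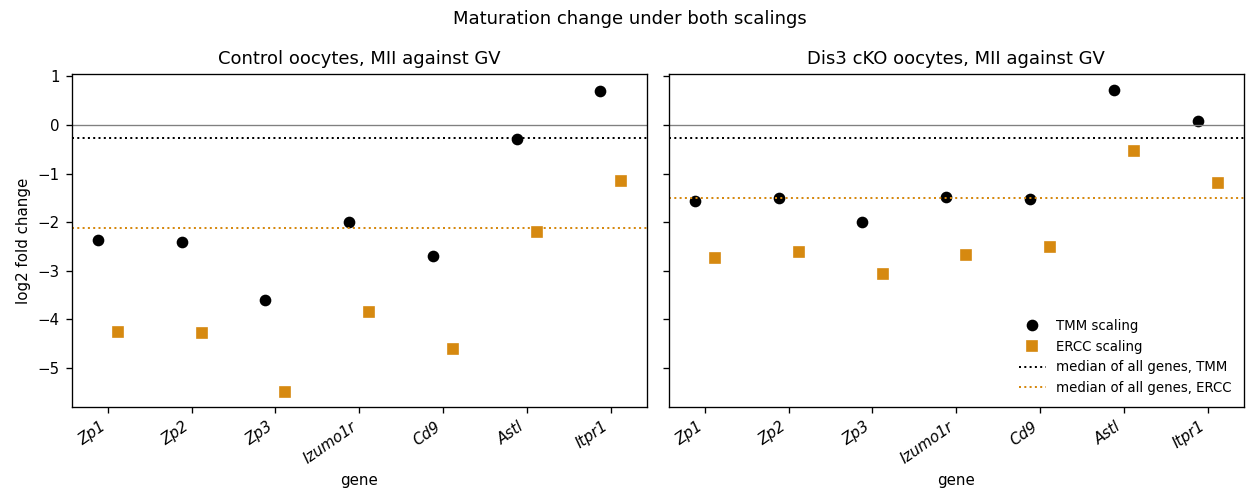
Log2 fold change from GV to MII for each gene in control (left) and Dis3 cKO (right) oocytes, under TMM scaling (black circles) and ERCC scaling (orange squares); dotted lines mark the median of all genes under each scaling. In controls the 5 zona and membrane genes lay below the median line of their own scaling, and Itpr1 lay above it under both.

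In GV oocytes without Dis3, Zp1 and Izumo1r fell and no member rose (13.6% of all genes were called higher and 8.33% lower). Zp1 ran from 197 to 672 CPM in Dis3 cKO (median 370) against 493 to 741 CPM in controls, 1.57-fold lower (-0.65 ± 0.20, adjusted p = 0.0119). In 14 of 15 knockout oocytes it was below the control mean, with overlapping ranges. Izumo1r ran from 72.8 to 112 CPM (median 90.6) against 84.4 to 138 CPM in controls, 1.33-fold lower (-0.41 ± 0.12, adjusted p = 0.0084), and was below the control mean in 15 of 15. Zp3 ran from 527 to 1374 CPM (median 833) and missed the threshold (-0.59 ± 0.24, adjusted p = 0.0687). It passed without control 1 (adjusted p = 0.0499) or Dis3 cKO 16 (adjusted p = 0.0426), when only these groups were fitted (0.00061), and in the libraries with title numbers 1 to 8, without a replicate block (0.0231) and with it (0.0174). With ERCC scaling 1265 of all genes were called higher and 2317 lower, and the same number of members, 2, was called. Zp2, Cd9, Astl and Itpr1 gave -0.29, -0.24, -0.44 and 0.00, with adjusted p from 0.217 to 0.986. Astl was called with the replicate block (-0.73, adjusted p = 0.0434). The lowest Astl value, 68.6 CPM, belonged to 1 Dis3 cKO oocyte. The median granulosa and cumulus sum was lower in GV Dis3 cKO, with overlapping ranges, and its part in these calls was not tested.

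At 3 h, Zp1, Izumo1r and Itpr1 fell in Dis3 cKO and no member rose (22.9% of all genes were called higher and 15.7% lower). Izumo1r ran from 79.0 to 137 CPM in Dis3 cKO (median 102) against 144 to 173 CPM in controls, 1.53-fold lower (-0.61 ± 0.12, adjusted p = 2.7e-05), and the groups did not overlap. Zp1 ran from 430 to 903 CPM (median 590) against 655 to 1012 CPM, 1.48-fold lower (-0.57 ± 0.20, adjusted p = 0.0186), and lay below the control mean in 16 of 16 oocytes. Itpr1 ran from 86.5 to 167 CPM (median 124) against 138 to 207 CPM, 1.31-fold lower (-0.39 ± 0.12, adjusted p = 0.0077). The Itpr1 call was lost with ERCC scaling (adjusted p = 0.135), in the libraries with title numbers 1 to 8 alone (0.0697) and in those with a replicate block (0.0754), and the Zp1 call was lost with ERCC scaling (0.19). The lower granulosa and cumulus sum of the GV3h Dis3 cKO libraries moved with these calls, and its part in them was not tested. Zp2, Zp3, Cd9 and Astl gave -0.10, -0.31, -0.01 and -0.03, with adjusted p from 0.309 to 0.982. Zp3 was called when only these groups were fitted (-0.33, adjusted p = 0.0032).

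In MII eggs the picture turned: Zp2, Zp3 and Cd9 were higher in Dis3 cKO than in controls and Itpr1 was lower (27.3% of all genes were called higher and 14.8% lower). Zp3 ran from 25.8 to 691 CPM in the 16 knockout eggs (median 149) against 70.3 to 149 CPM in controls, 2.03-fold higher (1.02 ± 0.25, adjusted p = 0.00077). In 13 of 16 eggs it was above the control mean. Cd9 ran from 2.89 to 193 CPM (median 47.7) against 25.7 to 56.7 CPM, 1.91-fold higher (0.93 ± 0.29, adjusted p = 0.0067). Zp2 ran from 154 to 2620 CPM (median 621) against 465 to 699 CPM, 1.51-fold higher (0.59 ± 0.24, adjusted p = 0.0418).

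A few eggs set the width of these ranges. Eggs 7, 11 and 12 held Zp2 at 1823, 2620 and 1481 CPM, Zp3 at 691, 602 and 315 CPM, and Cd9 at 193, 180 and 126 CPM, the highest values of their group for each gene. Dis3 was at 0.727, 2.11 and 0.586 CPM in these eggs. They had 81.0, 73.7 and 54.1 gene counts per ERCC count, against 42.2 to 52.2 in MII controls. Eggs 5 and 6, not among those highest values, had 71.5 and 73.5. The part of this ratio in the levels was not tested. Egg 15 held the lowest level of 6 of the 7 genes, among them Zp2 at 154 CPM, Zp3 at 25.8 CPM and Cd9 at 2.89 CPM, and had 14.4 gene counts per ERCC count, the lowest of the group. The Zp2 call was lost in 10 of 24 fits that each left out 1 egg, with adjusted p up to 0.163, reached without egg 11. It was also lost without the low-count filter (adjusted p = 0.0815), when only these groups were fitted (0.19), and in the libraries with title numbers 1 to 8, without a block (0.151) and with it (0.199). The Zp3, Cd9 and Itpr1 calls were kept in all 24 fits, but the Cd9 call was lost when only these groups were fitted (0.91, adjusted p = 0.0927).

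Itpr1 ran from 95.3 to 192 CPM in MII Dis3 cKO eggs (median 140) against 164 to 287 CPM in controls, 1.53-fold lower (-0.61 ± 0.12, adjusted p = 2.5e-05), and was below the control mean in 16 of 16. With ERCC scaling, which moved the median of all genes to 0.52 and called 6535 genes higher and 749 lower, Itpr1 was no longer called (-0.28, adjusted p = 0.273). Astl (1.02, adjusted p = 0.0153) and Izumo1r (0.53, adjusted p = 0.0435), neither of them called with TMM scaling, were then called higher. Astl ran from 48.7 to 996 CPM (median 554) against 181 to 740 CPM (0.57 ± 0.26, adjusted p = 0.0672). It passed without control 6 (adjusted p = 0.0232), control 8 (0.0185) or Dis3 cKO 15 (0.0135). Zp1 (0.16 ± 0.21, adjusted p = 0.55) and Izumo1r (0.10 ± 0.12, adjusted p = 0.548) were not called. The 16 granulosa and cumulus markers summed to 100 to 167 CPM in MII Dis3 cKO and to 207 to 441 CPM in MII controls; their part in these results was not tested.

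The change from GV to MII within Dis3 cKO had the same members falling, by smaller amounts (38.5% of all genes were called lower and 24.8% higher). Zp3 was 4.004-fold lower in MII, Zp1 2.94-fold, Cd9 2.86-fold, Zp2 2.85-fold and Izumo1r 2.80-fold, with adjusted p of at most 3.3e-08. The granulosa and cumulus sum moved with the stage, from 179 to 438 CPM in GV Dis3 cKO to 100 to 167 CPM in MII Dis3 cKO, with no overlap, and its part was not tested. Astl rose 1.66-fold (0.73 ± 0.21, adjusted p = 0.0019) and Itpr1 was not called (0.09 ± 0.10, adjusted p = 0.449). With ERCC scaling the median of all genes was -1.505 (227 called higher and 14311 lower), Astl stood at -0.53 (adjusted p = 0.0717) and Itpr1 at -1.204 (adjusted p = 3.4e-09). From GV to GV3h within Dis3 cKO, Zp1 (0.64 ± 0.17, adjusted p = 0.0048), Zp3 (0.71 ± 0.20, adjusted p = 0.0092) and Astl (0.74 ± 0.21, adjusted p = 0.0093) rose (7.42% of all genes were called higher and 9.88% lower). With ERCC scaling 6269 genes were called higher and 165 lower, and Zp2 (0.81, adjusted p = 0.0203) and Izumo1r (0.62, adjusted p = 0.0053) were called as well, as both were when only these groups were fitted (0.0463 and 0.0391).

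The difference between the Dis3 effect at MII and at GV was tested as an interaction, and it passed for 6 of 7 members (9.28% of all genes were called higher and 3.88% lower). The effect moved upward for Zp3 (1.61 ± 0.35, adjusted p = 0.00068), Cd9 (1.17 ± 0.39, adjusted p = 0.0357), Astl (1.01 ± 0.36, adjusted p = 0.0478), Zp1 (0.82 ± 0.29, adjusted p = 0.0482) and Izumo1r (0.51 ± 0.17, adjusted p = 0.0395). It moved downward for Itpr1 (-0.62 ± 0.17, adjusted p = 0.0109). Zp2 had a similar difference and missed the threshold (0.89 ± 0.34, adjusted p = 0.0676). With ERCC scaling the median of all genes was 0.68, with 5116 called higher and 121 lower. The Itpr1 difference was then -0.05 (adjusted p = 0.919) and no longer called, while Zp2 was called (1.67, adjusted p = 0.0072). With TMM scaling the Zp3 and Itpr1 calls were kept in all 47 fits that left out 1 library. The calls of Zp1 (lost in 29 of 47), Astl (27), Izumo1r (15) and Cd9 (11) were not, with adjusted p up to 0.0908, and without the low-count filter all 4 were lost (adjusted p 0.0613 to 0.101). The Zp1 call was also lost with DESeq2 (0.76, adjusted p = 0.0505) and the Izumo1r call with the replicate block (0.0504), and Zp2 passed without GV Dis3 cKO 8 (0.0453), MII Dis3 cKO 6 (0.0498) or MII Dis3 cKO 15 (0.0241). Between GV3h and GV the Dis3 effect was not called to differ for any member in edgeR or DESeq2, and only Itpr1 had an unadjusted p under 0.05 (-0.39 ± 0.17, adjusted p = 0.26; 1.37% of all genes were called higher and 0.667% lower).

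In the RiboMinus libraries of adult GV oocytes all 7 members fell in Dis3 cKO (12.4% of all genes were called lower and 15.7% higher). Zp3 ran from 394 to 529 CPM in Dis3 cKO (median 480) against 581 to 943 CPM in controls (median 852), 1.72-fold lower (-0.78 ± 0.09, adjusted p = 4.7e-06). Izumo1r ran from 58.0 to 91.8 CPM (median 71.03) against 94.1 to 124 CPM (median 111), 1.47-fold lower (-0.56 ± 0.09, adjusted p = 0.00012). Neither gene overlapped between the groups, and the share of all genes without overlap is not given.

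Astl, the protease gene, ran from 71.4 to 143 CPM (median 106) against 128 to 203 CPM (median 150), 1.53-fold lower (-0.61 ± 0.13, adjusted p = 0.0018). Zp1 ran from 299 to 434 CPM (median 378) against 434 to 678 CPM (median 558), 1.49-fold lower (-0.58 ± 0.09, adjusted p = 0.00019), and its ranges met only at 434 CPM. Zp2 ran from 753 to 904 CPM (median 779) against 848 to 1152 CPM (median 1018), 1.27-fold lower (-0.35 ± 0.07, adjusted p = 0.0014). For these 3 genes the groups touched or overlapped, and all 8 knockout oocytes were below the control mean.

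Cd9 and Itpr1 also fell. Cd9 ran from 15.2 to 29.1 CPM (median 22.8) against 22.8 to 41.2 CPM (median 27.7), 1.35-fold lower (-0.43 ± 0.16, adjusted p = 0.0496), a call lost in 11 of 16 fits that left out 1 oocyte (adjusted p up to 0.107) and without the low-count filter (0.0602). Itpr1, the calcium channel gene, ran from 186 to 308 CPM (median 265) against 305 to 350 CPM (median 317), 1.204-fold lower (-0.27 ± 0.08, adjusted p = 0.0122). With ERCC scaling all 7 stayed lower, with differences of -0.27 to -0.81 from the median of all genes, itself at -0.52 (699 called higher and 6144 lower). Each group came from a pair of title tags that the labels do not explain, 4 oocytes each. With counts summed per tag, which leaves a pair of samples a group, all 7 stayed lower and none was called (adjusted p 0.119 to 0.275). That fit called 0 of 20190 genes in either direction. In it 7 of the 7 members had an unadjusted p under 0.05. The share of all genes with such a p is not given, so this count cannot be weighed.

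**Figure D3:**
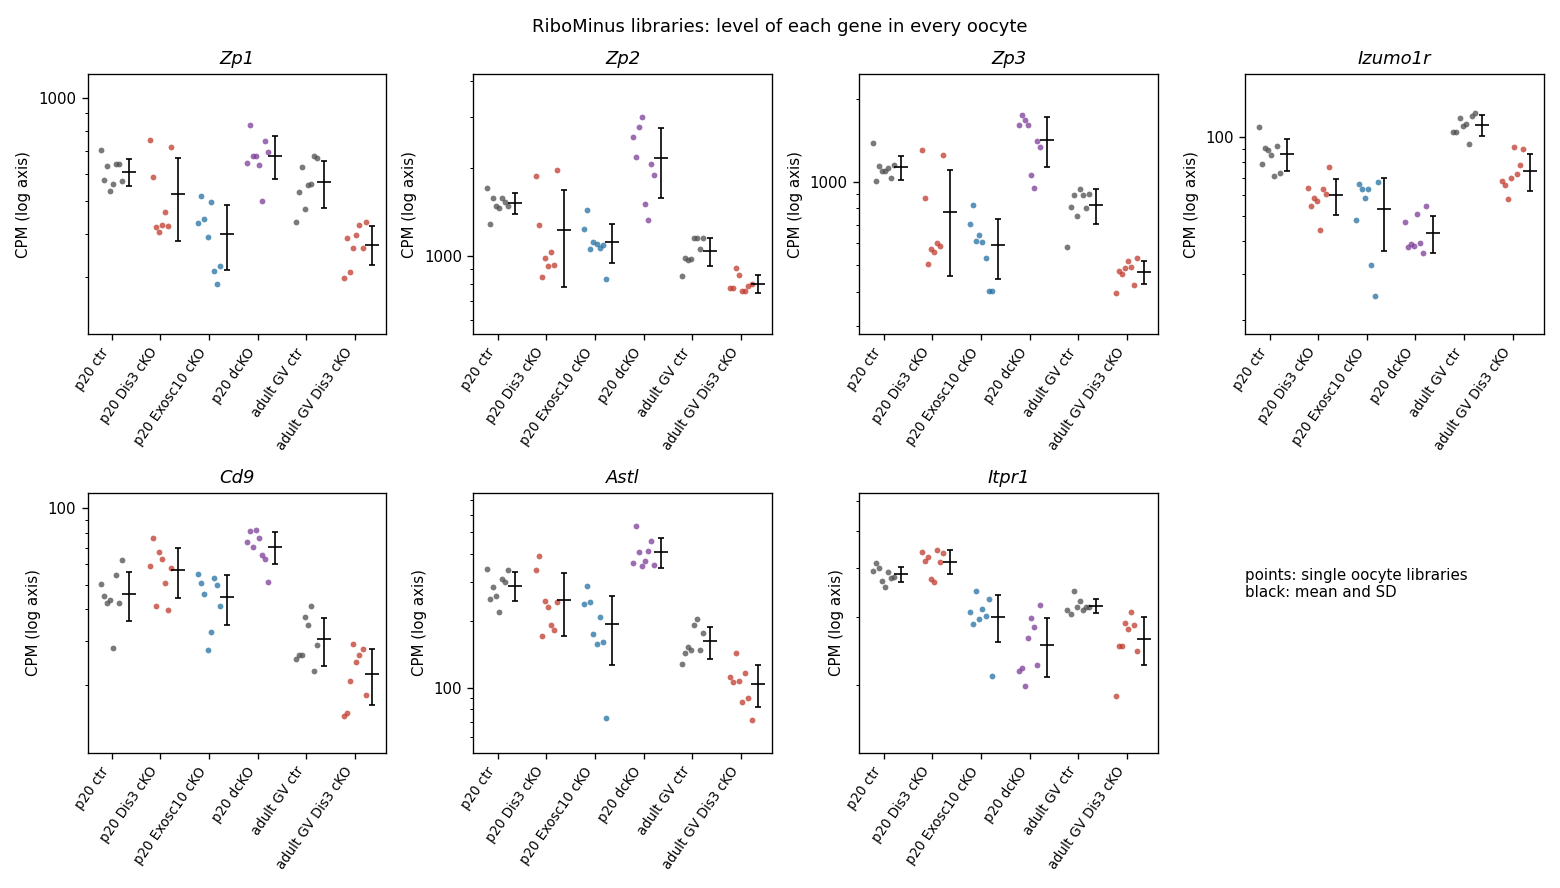
Level of each gene in every RiboMinus library, in CPM on a log axis, by age and genotype (grey: control, red: Dis3 cKO, blue: Exosc10 cKO, purple: dcKO); black marks give the mean and SD. Izumo1r was lower than the control mean in every p20 knockout library, and Zp2 spanned 846 to 1967 CPM in p20 Dis3 cKO.

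At p20 the knockouts of Dis3, of Exosc10 and of both were compared with 1 shared set of 8 controls, so their differences from control are not independent of each other. In Dis3 cKO only Izumo1r was called, lower (3.76% of all genes were called lower and 3.61% higher). In Exosc10 cKO Zp1, Zp3, Izumo1r, Astl and Itpr1 fell (3.5% of all genes were called lower and 3.95% higher). In dcKO Zp2, Cd9 and Astl rose while Izumo1r and Itpr1 fell (26.6% of all genes were called higher and 27.1% lower). With ERCC scaling, Zp3 was the only Exosc10 cKO call that remained (Zp1, Izumo1r, Astl and Itpr1 had adjusted p of 0.214, 0.0942, 0.438 and 0.622), and 214 of all 15882 genes were called higher and 150 lower. With counts summed per title tag, a pair of samples a group, all 5 Exosc10 cKO calls were lost (adjusted p 0.0623 to 0.295), and 112 of 20911 genes were called higher and 62 lower. None of the 3 rises in dcKO was called with ERCC scaling (Zp2 at 0.152, Cd9 at 0.0898 and Astl at 0.256). That scaling called 2833 of all 15882 genes higher and 3238 lower in dcKO. With summed counts the dcKO calls of Zp2 (0.0596) and Astl (0.107) and the Dis3 cKO call of Izumo1r (0.142) were lost. Of 20911 genes, the sums called 3359 higher and 3282 lower in dcKO, and 132 and 154 in Dis3 cKO. The granulosa and cumulus sum was lower in dcKO than in controls. In Dis3 cKO it was 245 to 299.6 CPM (median 266), with a median of 236 CPM in controls. The 8 oocyte markers summed to 11510 to 12526 CPM in dcKO and 9048 to 11448 CPM in controls, with no overlap, and to 11022 to 12633 CPM in Exosc10 cKO. The part of either sum in these values was not tested.

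Izumo1r was lower in all 3 knockouts. It ran from 70.7 to 109 CPM in p20 controls (median 87.0). It ran from 44.0 to 77.0 CPM in Dis3 cKO (median 59.3), from 24.8 to 67.5 CPM in Exosc10 cKO (median 60.9) and from 35.96 to 54.6 CPM in dcKO (median 39.2). All 24 knockout oocytes were below the control mean, and the Exosc10 cKO and dcKO ranges did not reach the controls. The log2 fold changes were -0.52 ± 0.15 (adjusted p = 0.0271) in Dis3 cKO, -0.70 ± 0.15 (adjusted p = 0.0024) in Exosc10 cKO and -0.99 ± 0.15 (adjusted p = 1.8e-06) in dcKO. The Dis3 cKO call was lost without control 1_1 (adjusted p = 0.071) or without Dis3 cKO 1_2 (0.0546), 1_4 (0.0502) or 2_1 (0.0718).

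Zp3 ran from 1009 to 1379 CPM in p20 controls (median 1110), from 505 to 1298 CPM in Dis3 cKO (median 593), from 401 to 822 CPM in Exosc10 cKO (median 609) and from 947 to 1747 CPM in dcKO (median 1503). Only the Exosc10 cKO difference was called, 1.92-fold lower (-0.94 ± 0.17, adjusted p = 0.00039), with no overlap. Dis3 cKO gave -0.53 ± 0.17 (adjusted p = 0.0575) and dcKO gave 0.34 ± 0.17 (adjusted p = 0.0945). The Dis3 cKO oocytes fell apart for the zona genes: 1_1 and 2_4 held Zp3 at 1298 and 1254 CPM, while 5 others held 505 to 599 CPM and 1_2 held 871 CPM. The same pair held Zp2 at 1882 and 1967 CPM and Zp1 at 756 and 718 CPM, above every control for both genes. Dis3 was at 1.51 and 1.29 CPM in them, within the 1.29 to 4.11 CPM of their group. Without 1_1 the Zp3 difference was called (adjusted p = 0.0073), and likewise without 2_4 (0.0104). It was also called with ERCC scaling (0.0393; 124 of all genes higher and 844 lower), with DESeq2 (0.0351), without the low-count filter (0.0412) and with a replicate block (0.0165). The dcKO difference was called when only these groups were fitted (0.0104).

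Zp1 ran from 535 to 705 CPM in p20 controls (median 604) and from 288 to 518 CPM in Exosc10 cKO (median 413), 1.52-fold lower (-0.60 ± 0.13, adjusted p = 0.0023), with no overlap. It was not called in Dis3 cKO (-0.20 ± 0.13, adjusted p = 0.403) or in dcKO (0.16 ± 0.13, adjusted p = 0.297). Zp2 ran from 1287 to 1714 CPM in controls (median 1506) and from 1327 to 3001 CPM in dcKO (median 2124), 1.44-fold higher (0.52 ± 0.16, adjusted p = 0.0057). In 6 of 8 dcKO oocytes Zp2 was above the highest control. The 4 dcKO oocytes of title tag 1 averaged 2626 ± 346 CPM and the 4 of tag 2 averaged 1700 ± 341 CPM (SD), against 1515 ± 180 and 1512 ± 55 CPM in controls of those tags. In Exosc10 cKO Zp2 missed the threshold (-0.44 ± 0.16, adjusted p = 0.0832), which it passed when only these groups were fitted (0.003), and in Dis3 cKO it gave -0.30 ± 0.16 (adjusted p = 0.297).

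Astl went opposite ways in the Exosc10 and the double knockout. It ran from 218 to 342 CPM in p20 controls (median 291), from 73.1 to 287 CPM in Exosc10 cKO (median 192) and from 354 to 535 CPM in dcKO (median 391). It was 1.496-fold lower in Exosc10 cKO (-0.58 ± 0.18, adjusted p = 0.0382) and 1.43-fold higher in dcKO (0.51 ± 0.18, adjusted p = 0.015). Every dcKO oocyte was above every control. The Exosc10 cKO call was lost in 9 of 16 fits that left out 1 oocyte, with adjusted p up to 0.0784, and when only these groups were fitted (0.0557). Exosc10 cKO 2_4 held the least Astl (73.1 CPM) and had 582 gene counts per ERCC count, the lowest of its group.

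Cd9 ran from 28.2 to 62.2 CPM in p20 controls (median 44.4) and from 51.4 to 81.9 CPM in dcKO (median 71.9), 1.54-fold higher (0.62 ± 0.15, adjusted p = 0.00069), with 7 of 8 oocytes above every control. It was not called in Dis3 cKO (0.30 ± 0.15, adjusted p = 0.246) or in Exosc10 cKO (-0.05 ± 0.15, adjusted p = 0.893). Itpr1 ran from 359 to 413 CPM in controls (median 386), from 210 to 349 CPM in Exosc10 cKO (median 305) and from 199 to 322 CPM in dcKO (median 245). It was 1.29-fold lower in Exosc10 cKO (-0.37 ± 0.09, adjusted p = 0.008) and 1.51-fold lower in dcKO (-0.60 ± 0.09, adjusted p = 1.3e-06), and neither group reached the controls. In Dis3 cKO it ran from 370 to 448 CPM and was not called (0.12 ± 0.09, adjusted p = 0.53).

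**Figure D4:**
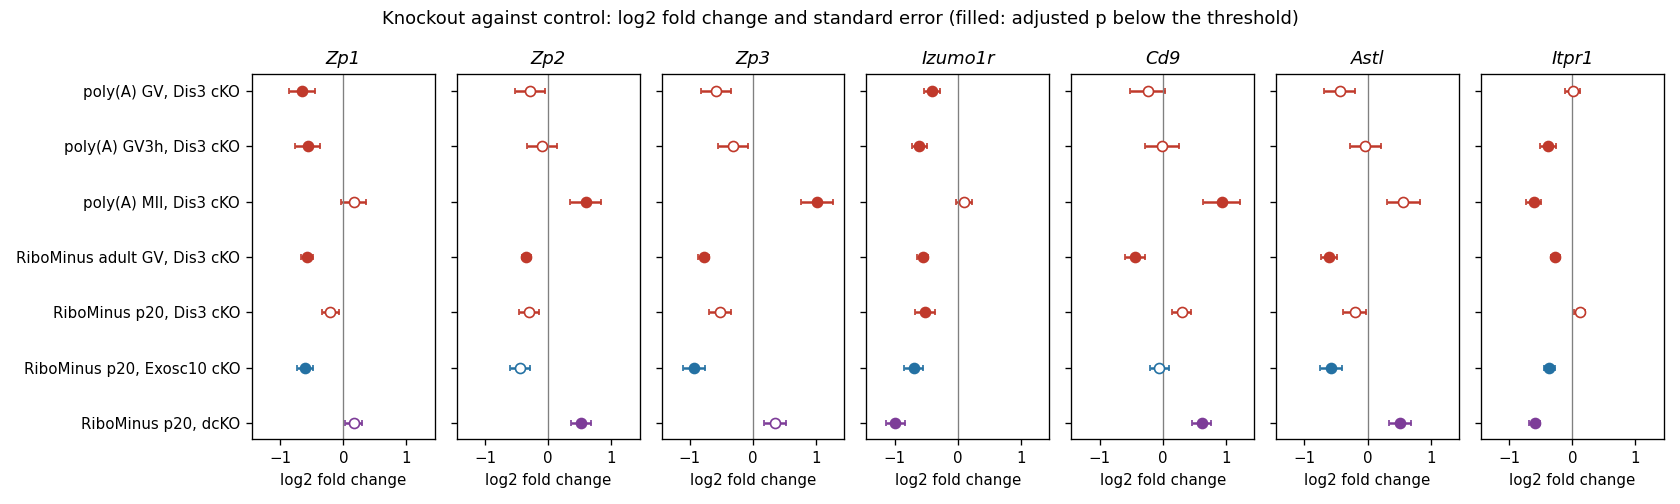
Log2 fold change of each gene in each knockout against its control, with the standard error; filled points passed an adjusted p of 0.05 and open points did not. Izumo1r was lower in 6 of the 7 comparisons, and the points of Zp2, Zp3 and Cd9 lay above 0 in MII Dis3 cKO and p20 dcKO.

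Set directly against each single knockout, the p20 dcKO had more of the zona genes and Astl. Against Dis3 cKO, Zp1, Zp2, Zp3 and Astl were higher and Izumo1r and Itpr1 lower (26.0% of all genes were called higher and 25.5% lower). The log2 differences were 0.37 ± 0.13 for Zp1 (adjusted p = 0.0176), 0.82 ± 0.16 for Zp2 (6.5e-05), 0.87 ± 0.17 for Zp3 (9.7e-05) and 0.72 ± 0.18 for Astl (0.0011). They were -0.47 ± 0.15 for Izumo1r (0.0101) and -0.71 ± 0.09 for Itpr1 (8.3e-08), and Cd9 missed the threshold (0.32 ± 0.15, adjusted p = 0.0752). The Zp1 call was lost without dcKO 1_2 (adjusted p = 0.0589) or Dis3 cKO 1_3 (0.0564), 1_4 (0.0577) or 2_1 (0.0549), and Cd9 passed without Dis3 cKO 1_2 (0.043) and with DESeq2 (0.048). With ERCC scaling (4289 genes called higher and 1575 lower) the calls of Izumo1r (0.517) and Itpr1 (0.0956) were lost. The granulosa and cumulus sum was 133 to 228 CPM in dcKO and 245 to 299.6 CPM in Dis3 cKO, with no overlap, and 199 to 277 CPM in Exosc10 cKO; its part in these differences was not tested.

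Against Exosc10 cKO, Zp1, Zp2, Zp3, Cd9 and Astl were higher in dcKO and Itpr1 lower (24.2% of all genes were called higher and 25.0% lower). Zp3 was 2.43-fold higher (1.28 ± 0.18, adjusted p = 3.9e-07) and Astl 2.13-fold higher (1.09 ± 0.18, adjusted p = 6.4e-06), and every dcKO oocyte was above every Exosc10 cKO oocyte for both. Zp2 was 1.96-fold, Zp1 1.70-fold and Cd9 1.59-fold higher, with adjusted p of at most 0.00035. Itpr1 differed by -0.23 ± 0.09 (adjusted p = 0.0331), a call lost without dcKO 1_3 (adjusted p = 0.0508) or Exosc10 cKO 2_1 (0.0502) or 2_3 (0.0632). That call was also lost in all 6 other alternatives: ERCC scaling (0.306), DESeq2 (0.0544), no low-count filter (0.0594), only these groups (0.0878), counts summed per tag (0.158) and a replicate block (0.0534). Izumo1r did not pass (-0.29 ± 0.15, adjusted p = 0.113), and passed without dcKO 2_4 (0.0455) or Exosc10 cKO 2_2 (0.0378) or 2_3 (0.013).

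Between ages, control oocytes of adults had less Zp2, Zp3, Cd9, Astl and Itpr1 and more Izumo1r, relative to other genes, than those labelled p20 (10.4% of all genes were called lower and 8.69% higher). Astl was 1.78-fold lower in adults (-0.83 ± 0.17, adjusted p = 0.00035), and its highest adult value of 203 CPM was under the lowest p20 value of 218 CPM. Cd9 was 1.52-fold lower (-0.60 ± 0.16, adjusted p = 0.0047), Zp2 1.46-fold (-0.55 ± 0.14, adjusted p = 0.0037), Zp3 1.37-fold (-0.45 ± 0.15, adjusted p = 0.0317) and Itpr1 1.21-fold (-0.27 ± 0.09, adjusted p = 0.0215). Izumo1r was 1.29-fold higher (0.37 ± 0.14, adjusted p = 0.0496), a call lost in 14 of 16 fits that left out 1 oocyte. The Zp3 call was lost in 5 of 16. Without the low-count filter Izumo1r (0.0642) and Itpr1 (0.0625) were not called, and with counts summed per title tag none of the 6 was (adjusted p 0.0917 to 0.331), where 99 of 22815 genes were called higher and 138 lower.

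The ages differed in spike-in ratio: p20 controls had 1267 ± 178 gene counts per ERCC count and adult controls 403 ± 48 (SD, n = 8 each). With ERCC scaling the median of all genes between ages moved from 0.00 to -1.69, with 72 called higher and 14797 lower. Izumo1r then stood at -1.33 (adjusted p = 9.6e-08), which is 0.36 above the median gene, and Zp1 at -1.82, a difference of -0.12 from it. The age groups were separate collections with different title tags, so age and batch cannot be told apart. The granulosa and cumulus sum was 178 to 238 CPM in adult controls and 215 to 265 CPM in p20 controls. The 8 oocyte markers summed to 7146 to 11069 CPM in adult controls and 9048 to 11448 CPM in p20 controls. The part of either sum in the age differences was not tested. The Dis3 effect was lower in adults than at p20 for Cd9 (-0.75 ± 0.22, adjusted p = 0.0212) and Itpr1 (-0.40 ± 0.12, adjusted p = 0.0279) and was not called to differ for the other 5 (3.98% of all genes were called lower and 5.34% higher). The Itpr1 call was lost in 4 of 32 fits that left out 1 oocyte, with adjusted p up to 0.057, and without the low-count filter (0.0606). Both calls were lost with ERCC scaling (Cd9 0.116, Itpr1 0.305) and with counts summed per tag (0.208 and 0.402).

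The order of the group means in CPM summarises each gene. In the RiboMinus libraries dcKO had the highest mean Zp1, Zp2, Zp3, Cd9 and Astl of the 6 groups and the lowest mean Izumo1r and Itpr1. Adult Dis3 cKO had the lowest mean Zp1, Zp2, Zp3, Cd9 and Astl. Per 1000 ERCC counts adult Dis3 cKO was also lowest for Izumo1r (19.1, with 51.8 in dcKO) and Itpr1 (70.6, with 307 in dcKO). With ERCC scaling, 14797 of 17267 genes were called lower in adult than in p20 controls. A low adult rank per spike-in was therefore not particular to these genes. In the poly(A) libraries MII controls had the lowest mean Zp1, Zp2, Zp3, Izumo1r and Cd9 and the highest mean Itpr1. GV3h controls had the highest mean Zp1, Zp2, Zp3, Izumo1r and Astl. Per 1000 ERCC counts the Itpr1 order turned, with 8.63 in MII controls against 19.2 in GV and 26.9 in GV3h controls. Of the 70 steps between neighbours in the CPM orders, 47 were smaller than the larger SD of the neighbours. In 5 steps the ranges of the neighbours did not overlap. Over the 12 group means, centred within each assay, Pearson's r was 0.99 between Zp2 and Zp3, 0.98 between Zp1 and Zp3 and 0.97 between Zp2 and Cd9. Astl had r from -0.02 to 0.50 with the other members and Itpr1 from -0.42 to 0.02. These points share libraries and the drop from GV to MII.

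Of 12602 protein-coding genes, the closest in pattern to Zp3 by the same measure was Tle6 (r = 0.99), a gene of the maternal subcortical complex. Closest to Izumo1r was Fetub (r = 0.99), which encodes an inhibitor of ovastacin, and closest to Astl was Nlrp5 (r = 0.95), another gene of the subcortical complex. Ptdss2 was closest to Zp1 (r = 0.99), Cops7a to Zp2 (r = 0.99), Scyl3 to Cd9 (r = 0.98) and Lypla1 to Itpr1 (r = 0.93).

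The wider set of zona, egg membrane, cortical granule, calcium and zona regulator genes held 48 genes, of which 46 or 47 were tested, and it moved in both directions. In Dis3 cKO at GV, 2 of 46 rose and 10 fell, beside 13.6% and 8.33% of all genes. At GV3h 9 rose and 12 fell (22.9% and 15.7% of all genes), and at MII 6 rose and 8 fell (27.3% and 14.8%). In adult RiboMinus libraries 6 of 46 rose and 11 fell (15.7% and 12.4%). At p20, of 47 genes, 3 rose and 3 fell in Dis3 cKO (3.61% and 3.76% of all genes), 1 rose and 5 fell in Exosc10 cKO (3.95% and 3.5%), and 14 rose and 19 fell in dcKO (26.6% and 27.1%). Lhx8, an oocyte transcription factor, fell in Dis3 cKO at GV (-0.67 ± 0.10), GV3h (-0.73 ± 0.10), MII (-0.63 ± 0.10) and in adult RiboMinus libraries (-0.69 ± 0.09), with adjusted p of at most 1.4e-05. In p20 Dis3 cKO Lhx8 was not called. Figla rose in MII Dis3 cKO (1.07 ± 0.33, adjusted p = 0.0073). Among zona partners Fetub fell at GV (-0.79 ± 0.19, adjusted p = 0.00079), GV3h (-0.93 ± 0.18, adjusted p = 3.2e-05) and in p20 dcKO (-0.94 ± 0.21, adjusted p = 0.00033). Fetub was not called lower in Dis3 cKO at MII or in adult RiboMinus libraries, where the only zona partner called lower was Furin. Zp4-ps, the mouse Zp4 pseudogene, rose in Dis3 cKO at GV (0.88 ± 0.21, adjusted p = 0.00078), GV3h (1.04 ± 0.21, 3.7e-05), MII (1.905 ± 0.23, 2.3e-10) and in adult RiboMinus libraries (1.203 ± 0.31, 0.0065). In p20 Dis3 cKO neither Zp4-ps nor any other zona partner was called. The Dis3 effect on Zp4-ps was higher in adults than at p20 (1.12 ± 0.35, adjusted p = 0.0314). Oosp2, an oocyte secreted protein gene, rose at MII (1.35 ± 0.16, adjusted p = 9.1e-11), from 147 ± 39 CPM in 8 controls to 373 ± 89 CPM in 16 Dis3 cKO eggs (SD). Rph3a, a vesicle exocytosis gene of the cortical granule list, fell in Dis3 cKO at all 3 poly(A) stages, in adults and at p20, by 0.60 to 1.51 on the log2 scale. Of the calcium genes Itpr2, another inositol trisphosphate receptor, fell at p20 in Dis3 cKO (-0.52 ± 0.10, adjusted p = 0.0008) and in Exosc10 cKO (-0.58 ± 0.10, adjusted p = 0.00024), and Camk2g, the kinase that carries the egg calcium signal, fell in dcKO (-0.78 ± 0.07, adjusted p = 2.5e-10). Stim1, a calcium sensor of the endoplasmic reticulum, rose in Dis3 cKO at GV3h (2.17 ± 0.55, adjusted p = 0.0011) and in p20 dcKO (2.38 ± 0.38, adjusted p = 3.1e-06). Also in p20 dcKO rose Itgav, an integrin gene (1.83 ± 0.22, adjusted p = 3.3e-08), and the vesicle gene Vamp2 (3.76 ± 0.66, adjusted p = 1.2e-05), the latter from 0.348 ± 0.323 to 4.83 ± 2.71 CPM (SD, n = 8 each).

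Chromatin was profiled by CUT&Tag with antibodies labelled H3K27me3 and PolS2S5, and each group had 3 lists of regions that carry the authors' signal values. Reads had been sampled down to the same number per library, and the lists still held 19697 to 122606 regions for polymerase. At p20 in controls a polymerase region touched the annotated span of all 7 genes in 3 of 3 lists; in any single list it touched 44.3 to 48.8% of all genes. The share of all genes touched in 3 of 3 lists was not computed. In adult controls this held in 3 of 3 lists for Zp2, Izumo1r, Cd9, Astl and Itpr1, in 2 of 3 for Zp3 and in 1 of 3 for Zp1 (23.6 to 33.3% of all genes per list). In adult Dis3 cKO it held for all 7 genes in 3 of 3 lists (32.5 to 56.7% per list). H3K27me3, a repressive mark, touched the span of Zp2 in 1 of 3 adult control lists, 0 of 3 p20 control, 0 of 3 adult Dis3 cKO and 3 of 3 p20 dcKO lists. In the same order Itpr1 had it in 2, 2, 3 and 3 of 3 lists, Astl in 2, 2, 0 and 1, Izumo1r in 2, 1, 0 and 0, Zp1 in 1, 0, 0 and 1, Cd9 in 0, 0, 0 and 1, and Zp3 in none. Per list it touched 33.6 to 49.6%, 40.1 to 41.4%, 41.0 to 43.9% and 46.2 to 55.7% of all genes. With only regions above the median of their list, H3K27me3 touched Zp2 in 0 of 3 lists of every group. In the same order Itpr1 then had it in 1, 0, 2 and 2 of 3 lists, and Astl and Izumo1r each in 1, 1, 0 and 0. Those regions touched 25.3 to 38.2%, 30.9 to 31.3%, 32.1 to 34.0% and 35.5 to 41.2% of all genes per list.

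Within 1000 bases of the start, read for the genes with a RefSeq promoter entry, a polymerase region stood at Zp3 in 1 of 3 lists of adult controls, in 0 of 3 at p20 and in 3 of 3 of adult Dis3 cKO. In the same order Astl had one in 1, 2 and 1 of 3 lists, Izumo1r in 0, 0 and 1, and Cd9 in 0, 0 and 0. Of all 17492 starts, 2.90 to 5.76%, 9.46 to 11.5% and 4.89 to 15.3% had one in those lists. Near the start, H3K27me3 touched Zp3 in 0 of 3 lists of either control and in 1 of 3 of either knockout profiled (adult Dis3 cKO and p20 dcKO). It touched Izumo1r in 2 of 3 adult control lists and in none of the other 9, and Cd9 in none of the 12. It touched Astl in 1 of 3 adult control, 2 of 3 p20 control, 0 of 3 adult Dis3 cKO and 1 of 3 p20 dcKO lists. Over all starts it stood at 18.3 to 29.7% in adult controls, 25.5 to 26.2% in p20 controls, 23.3 to 26.995% in adult Dis3 cKO and 25.9 to 30.0% in p20 dcKO. Long genes are touched more often, and Itpr1 spans 338034 bases against 6306 for Zp1. Annotated genes overlap Cd9 (Gm28809, Gm26728) and Itpr1 (Gm35165, Mir7661, Gm44040); strand use in counting is not given in the sources used here, so their reads cannot be told apart.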

How the data were processed

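Gene counts per single oocyte library were used as deposited by the authors; per the submitters' processing notes the tools were cutadapt 2.5, FastQC 0.11.8, STAR 2.7.2a, SAMtools 1.9, HTSeq 0.9.1, R 3.5.1, DESeq2 1.24.0 and SEACR, and the build was mm10, with no role given. The CUT&Tag region lists hold the authors' signal values, deposited after random sampling of reads per the series' design text; regions were used here only for position and rank.

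Counts were tested with edgeR 4.0.16 (quasi-likelihood, TMM scaling, filterByExpr, Benjamini-Hochberg adjustment over 15334 to 17389 genes, threshold 0.05) in R 4.3.3, with 1 fit each for poly(A), adult RiboMinus, p20 RiboMinus and both ages. The script was tested on simulated counts. CPM values use TMM factors over all libraries of an assay. Alternatives were ERCC scaling, DESeq2 1.42.0, no filter, only the groups compared, a replicate block (for poly(A) only within title numbers 1 to 8, which were also fitted without it), counts summed per title tag, and leaving out each library in turn. Leaving out GV control 1 and MII Dis3 cKO 15 was planned, and leaving out each of the others was chosen after seeing the data. Depth sets counting error only.

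Groups came from the sample titles and genotype labels. Likeness used log2(CPM + 1). The named genes were the 7 members, their 1 or 2 likest genes, and at most 2 called genes per list and comparison. The members, gene lists and tests were chosen with earlier results of these data known. No transcript lengths were used here, so levels are not compared between genes, and proteins were not analysed here.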

Additional observations from a re-analysis of the deposited data

Results flagged for a closer look

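In 4 of 63 groups of 8 libraries tested for a single value far from the rest, the highest or lowest library stood apart; chance gives about 1 in 20. They were Zp3 in GV3h control 5 (1370 CPM, next lowest 1687), Zp3 in p20 control 1_1 (1379 CPM, next highest 1146), Cd9 in GV control 2 (415 CPM, next highest 271) and Itpr1 in Exosc10 cKO 2_4 (210 CPM, next lowest 286).

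The Dis3 effect differed between MII and GV by a test of the difference itself for Zp1 (log2 difference 0.82), Zp3 (1.61), Izumo1r (0.51), Cd9 (1.17), Astl (1.01) and Itpr1 (-0.62). It differed between adults and p20 for Cd9 (-0.75) and Itpr1 (-0.40). Among fits that left out 1 library, the MII calls of Zp1, Astl, Izumo1r and Cd9 were lost in 29, 27, 15 and 11 of 47, and the Itpr1 call between ages in 4 of 32. With ERCC scaling the Itpr1 call between MII and GV and both calls between ages were lost. The causes were not tested.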

How the results depend on the processing

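Of 7 members, the number called moved by more than 1.5 times in these cases. With ERCC scaling it was 1 at GV3h (3 in the reported fit), 5 for GV to GV3h in Dis3 cKO (3), 2 in p20 Dis3 cKO (1), 1 in Exosc10 cKO (5), 2 in p20 dcKO (5) and 0 for the difference between ages (2). ERCC scaling turned Itpr1 from GV to MII to -1.16 in controls and -1.20 in Dis3 cKO, Astl in Dis3 cKO to -0.53, and Izumo1r between ages to -1.33. Fitting only the groups compared gave 2 at MII (4), 3 for GV to GV3h in controls (0) and 5 in Dis3 cKO (3). Without the low-count filter there were 2 for the MII interaction (6), 2 in p20 Dis3 cKO (1) and 1 for the difference between ages (2). DESeq2 gave 2 in p20 Dis3 cKO. Counts summed per title tag gave 0 in adult Dis3 cKO (7), p20 Dis3 cKO (1), Exosc10 cKO (5), controls between ages (6) and the difference between ages (2), and 3 in p20 dcKO (5). The calls over all genes moved with the setting too. With ERCC scaling they were 3046 higher and 1850 lower at GV3h (3989 and 2729), 6269 and 165 for GV to GV3h in Dis3 cKO (1291 and 1718), 124 and 844 in p20 Dis3 cKO (574 and 597), 214 and 150 in Exosc10 cKO (627 and 556), 2833 and 3238 in p20 dcKO (4231 and 4300) and 325 and 258 for the difference between ages (922 and 688). With only the groups compared they were 2473 and 1863 at MII (4743 and 2572), 1056 and 1027 for GV to GV3h in controls (199 and 272) and 2170 and 2255 in Dis3 cKO. Without the filter they were 1362 and 806 for the MII interaction (1613 and 674), 517 and 572 in p20 Dis3 cKO and 1148 and 641 for the difference between ages, and with DESeq2 801 and 709 in p20 Dis3 cKO. With summed counts they were 0 and 0 in adult Dis3 cKO, 132 and 154 in p20 Dis3 cKO and 112 and 62 in Exosc10 cKO. They were 3359 and 3282 in p20 dcKO, 99 and 138 in controls between ages and 43 and 27 for the difference between ages. The causes were not tested. The sums had fewer samples per group, and the part of that in the lost calls was not tested either.

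Leaving out 1 library gave 2 to 7 members for the MII interaction, 0 to 2 for p20 Dis3 cKO and 1 to 2 for the difference between ages. For the MII interaction without GV control 1, 1487 of all genes were called higher and 697 lower. Without MII Dis3 cKO 15 these were 1802 and 883. In the other fits that left out 1 library, calls over all genes were not kept. A replicate block gave 4 at GV (2) and 2 in p20 Dis3 cKO (1), where it called 2171 of all genes higher and 1641 lower (2358 and 1448) and 535 and 608 (574 and 597), and left the other counts within 1.5 times. In poly(A) it was fitted only to libraries with title numbers 1 to 8, which gave 3 at GV with no block (2250 and 1571 of all genes); of the calls reported at GV3h, MII and for the MII interaction, Itpr1, Zp2 and Izumo1r (0.0504) were lost with it, and the first 2 also without it. The numbers do not pair the oocytes: correlations of same-numbered libraries ran from -0.32 to 0.23 and in no comparison were all above 0.1.

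Member promoters with a region, summed over 3 lists, moved from 2 to 11 in adult controls, 2 to 12 in p20 controls and 5 to 12 in adult Dis3 cKO for polymerase when the gene body was included, as the share of all genes moved from 2.90 to 5.76% to 24.3 to 34.2%, from 9.46 to 11.5% to 45.2 to 49.8% and from 4.89 to 15.3% to 33.4 to 57.9%. With only regions above the median of their list they were 1 in each control for polymerase (1.78 to 3.62% and 6.39 to 7.52% of all genes), and 1, 0 and 1 for H3K27me3 in p20 controls, adult Dis3 cKO and p20 dcKO (2, 1 and 2), where all genes stood at 20.003 to 20.4%, 17.0 to 19.9% and 18.6 to 21.5%. A comparison of zona levels per transcript length was not run.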
